A study of Mus musculus with 16 samples.

Results

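The genes described here are interferon-stimulated genes and genes of MHC class I antigen presentation, chosen by symbol from a list of 49 names. Of these, 48 were rows of the count table, which held 14474 genes in all. The symbol *Ddx58* was not a row, and the gene it names was listed under its current symbol *Rigi*. The cells were immortalized mouse keratinocytes that lack the integrin α3 subunit (MKα3−, labelled null) and the same α3-null line with human α3 integrin put back (MKα3+, labelled rescued). Each line was given laminin-332 (LN332) at 0.02 mg/mL or an equal volume of vehicle (PBS with glycine and NaN3) for 16 to 24 h, with 4 libraries in each of the 4 groups. All cells were grown on collagen-coated dishes in low-calcium medium at 33 °C with 8% CO2, and integrin α3β1 is a receptor for LN332. The sources do not say whether either line is a single clone. The study's methods call its in vitro data points experimental replicates, without saying whether the libraries came from separate cultures, so the p-values measure the spread between these libraries, which may be technical.

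Interferons are secreted proteins that bind receptors on the cell surface and act through JAK kinases and STAT transcription factors. Type I and III interferons act mainly through a complex that holds STAT2 and IRF9 and binds a promoter element called the interferon-stimulated response element, and interferon γ acts mainly through the gamma-activated site. The genes they induce encode sensors of viral RNA, enzymes that block viral replication, and the machinery that cuts proteins into peptides, carries them into the endoplasmic reticulum and loads them on class I molecules. Many of these genes are also transcribed at a basal level without added interferon, keratinocytes included.

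The response element can be read directly in several of these genes. RefSeq promoter sequences (GRCm38.p6) were matched to 36 of the 48 genes, and the 250 bases before each start were searched. The core GAAANNGAAA, searched on both strands, was in the window of 10 of the 36 genes (27.8%), against 361 of the 10903 genes of the table with a window (3.31%). The core TTCNNNGAA of the gamma-activated site was in 6 of the 36 (16.7%), against 7.10% of those 10903 genes. The stretches below are shown because their genes have well-known response elements and are described in the results. They are written in the direction of transcription with each match in capitals, and a match on the opposite strand reads TTTC first.
Isg15 (chr4:156200835-156200936, minus strand): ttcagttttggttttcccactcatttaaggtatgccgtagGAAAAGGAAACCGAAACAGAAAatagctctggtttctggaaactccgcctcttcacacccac
Ifit3 (chr19:34583333-34583456, plus strand): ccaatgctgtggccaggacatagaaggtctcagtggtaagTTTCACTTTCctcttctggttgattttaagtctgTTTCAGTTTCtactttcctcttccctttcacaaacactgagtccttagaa
Ifit1 (chr19:34640745-34640853, plus strand): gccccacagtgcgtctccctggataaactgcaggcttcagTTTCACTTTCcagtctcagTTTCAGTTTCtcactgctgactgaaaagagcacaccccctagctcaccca
Gbp3 (chr3:142559959-142560043, plus strand): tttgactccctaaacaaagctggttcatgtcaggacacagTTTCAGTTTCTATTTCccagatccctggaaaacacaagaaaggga
Gbp2 (chr3:142620564-142620653, plus strand): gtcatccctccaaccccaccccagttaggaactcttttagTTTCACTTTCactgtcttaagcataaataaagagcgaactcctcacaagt
B2m (chr2:122147508-122147597, plus strand): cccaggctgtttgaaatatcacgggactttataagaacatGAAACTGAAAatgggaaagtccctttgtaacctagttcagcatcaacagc
*Isg15* held 3 overlapping matches, *Gbp3* held a pair that overlap, *Ifit3* and *Ifit1* held a pair of separate matches each, and *Gbp2* and *B2m* held 1. The other 4 genes with a match were *Oas1a*, *Bst2*, *Stat2* and *Rsad2*. These are matches of letters in a window and not measured sites. *Dhx58*, *Oas2* and *Mx1*, described below, had no matched promoter and were not searched. Of the genes called differentially expressed between the lines below, only *Gbp3* held a match to this core.

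Total counts per library were between 21735708 and 29338370, and CPM values below are counts divided by library size after TMM scaling. Keratinocyte markers, with *Krt14* and *Krt5* highest, summed to between 9065 and 19867 CPM in every library, as the label of the cells says. Leukocyte markers, of which 7 of 9 were in the table, summed to between 41.1 and 89.8 CPM in vehicle-treated and between 39.6 and 105 CPM in LN332-treated MKα3− cells, and to between 105 and 365 CPM and between 58.6 and 370 CPM in the matching MKα3+ groups. They were highest in vehicle-treated MKα3+ replicates 3 and 4 and LN332-treated MKα3+ replicate 4, where the macrophage gene *Lyz2* was at 229, 237 and 237 CPM. The pan-leukocyte gene *Ptprc* did not exceed 3.81 CPM. In bulk RNA, fewer cells that express a gene and less RNA per cell cannot be told apart.

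Every one of the 48 genes was expressed in these cells, although no interferon was added. Each gene of the table exceeded 0.5 CPM in at least 6 libraries, so this follows from the 48 being rows. Compared per kilobase of exon in vehicle-treated MKα3− cells, *B2m* (the light chain of class I molecules) was the highest at 4023 CPM per kilobase, followed by *Ifitm3* (a membrane protein that blocks viral entry) at 1543 and *H2-K1* (a class I heavy chain) at 1386. *Mx2* (a dynamin-like antiviral GTPase) was the lowest of the 47 genes with a known exon length, at 7.07 CPM per kilobase. None of the 5 interferon genes looked for, *Ifnb1*, *Ifnk*, *Ifne*, *Ifnl2* and *Ifnl3*, was a row of the table. Their level, if any, cannot be read from that.

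The first question was how these genes differed between MKα3+ and MKα3− cells. In vehicle, 6 of the 48 genes were differentially expressed (adjusted p under 0.05 and absolute log2 difference over 0.5, by limma-voom, adjusted across the whole table by Benjamini-Hochberg), where 18.5% of all genes were. All 6 were lower in MKα3+ cells, a share of 12.5%, where 7.56% of all genes were lower and 10.9% were higher. They were *Irf7*, *Ifih1*, *Dhx58*, *Oas2*, *Mx1* and *Lgals3bp*. In LN332, 9 of the 48 genes passed (background 20.6%): *Psmb9*, *Irf7*, *Ifih1*, *Dhx58*, *Oas2*, *Gbp3* and *Ifitm3* were lower in MKα3+ cells, a share of 14.6% (background 8.92%), and *Rigi* and *Trim25* were higher, a share of 4.17% (background 11.7%). The groups compared in vehicle and in LN332 share no library. Both comparisons came from a single fit of all libraries, with a shared estimate of each gene's spread. The p-values in each medium therefore also depend on the libraries of the other, and the calls are not independent.

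The median log2 difference of the 48 genes was -0.22 in vehicle and -0.24 in LN332, while the medians of all genes were 0.01 in both. In vehicle the fold change was negative for 41 of the 48 genes, against 49.4% of all genes, and in LN332 for 37, against 49.3%. The mean log2 level of the 48 genes, taken per library, was 7.94 ± 0.35 (SD, n = 4) in vehicle-treated MKα3− cells, 7.80 ± 0.29 with LN332, 7.62 ± 0.25 in vehicle-treated MKα3+ cells and 7.503 ± 0.24 with LN332. Relative to vehicle-treated MKα3− cells, the change was -0.14 in LN332-treated MKα3− cells. It was -0.32 in vehicle-treated and -0.44 in LN332-treated MKα3+ cells. The ranges of all 4 groups overlap.

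**Figure D1:**
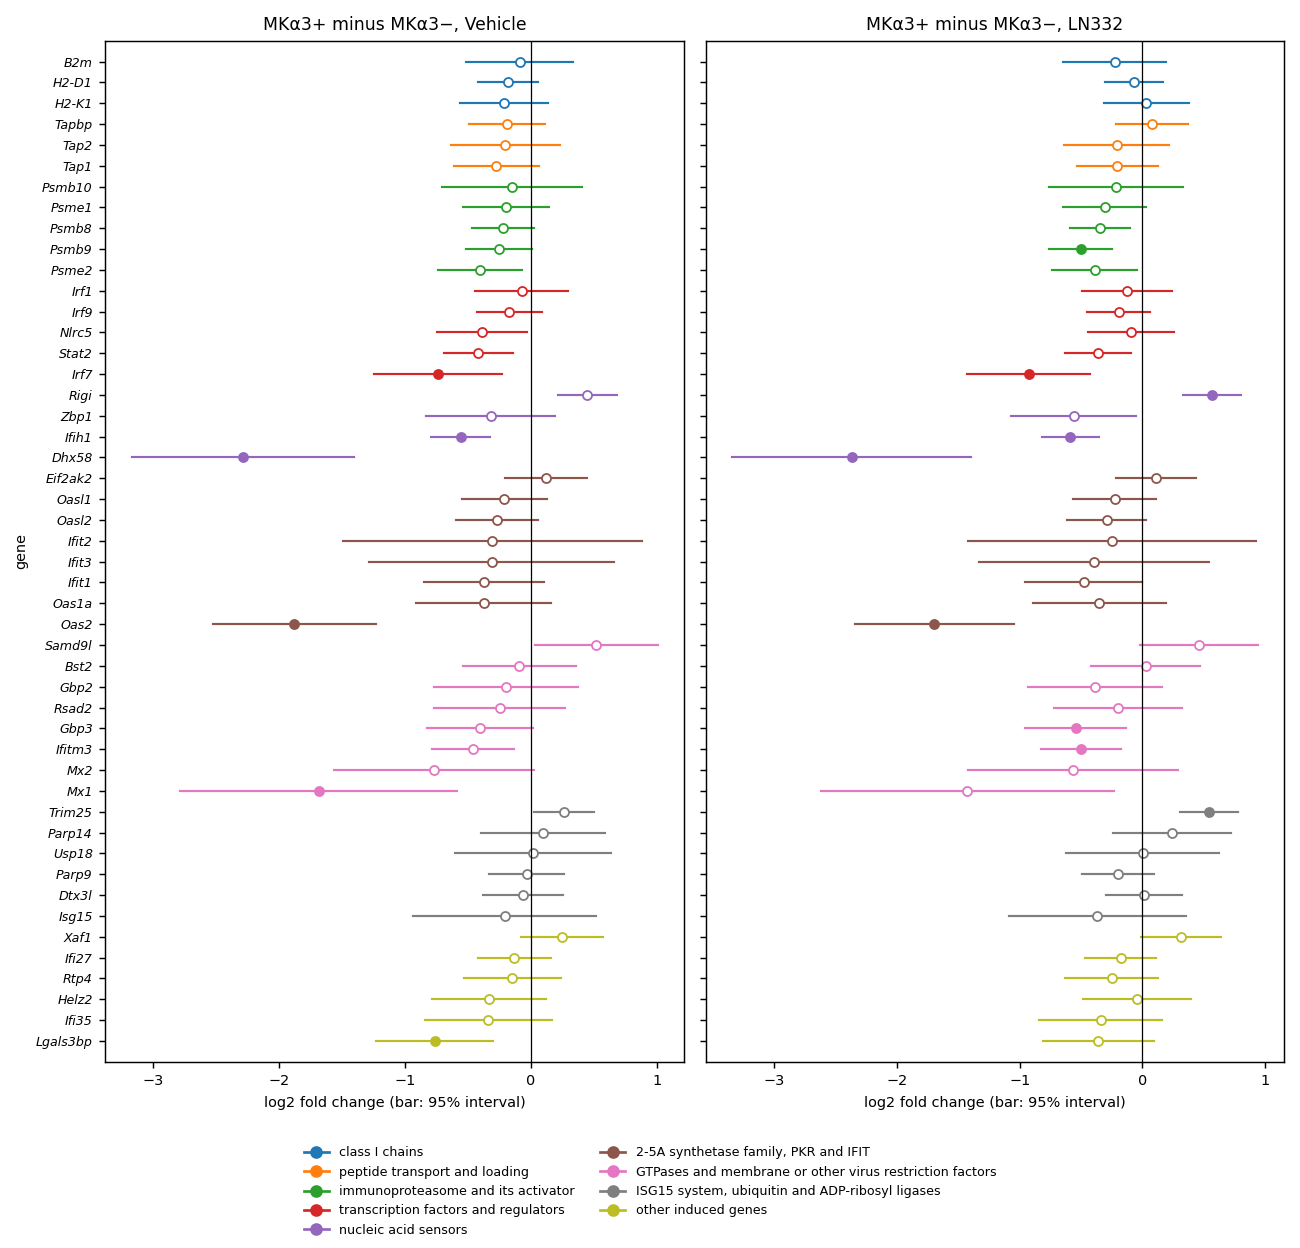
Log2 fold change of MKα3+ over MKα3− cells (x axis) for each of the 48 genes (y axis), grouped by role (colour), in vehicle (left) and in LN332 (right). Points are fitted values, bars are 95% intervals, and filled points passed both thresholds; *Dhx58* and *Oas2* lie farthest to the left in both media, and 41 and 37 points lie left of 0.

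The chains of class I molecules were among the most abundant of these transcripts and passed in neither medium. *H2-K1* (Entrez 14972, chromosome 17, 33996012 to 34000619 in GRCm38.p6) was at 4971, 3404, 4193 and 3717 CPM in vehicle-treated MKα3− replicates 1 to 4 and at 3930, 3123, 3455 and 3465 CPM in the MKα3+ replicates. In LN332 the replicates stood at 4376, 3050, 3878 and 2447 CPM in MKα3− and 3888, 3217, 3315 and 3292 CPM in MKα3+ cells. The groups overlapped in both media, and the log2 differences between the lines were -0.21 (95% interval -0.56 to 0.14) and 0.03 (-0.31 to 0.38). *H2-D1*, the other classical heavy chain measured (chromosome 17, 35263094 to 35267497), was at 2413, 1974, 2186 and 1986 CPM in vehicle-treated MKα3− and at 2121, 1702, 1865 and 1867 CPM in MKα3+ cells. With LN332 its replicates were at 2044, 1852, 2180 and 1579 CPM and at 1868, 1742, 1786 and 1826 CPM. Again the groups overlapped, with log2 differences between the lines of -0.18 (-0.42 to 0.06) and -0.07 (-0.31 to 0.17). *B2m* (chromosome 2, 122147687 to 122153082) was at 4489, 2938, 3384 and 3029 CPM in vehicle-treated MKα3− and at 4455, 2846, 2951 and 2835 CPM in MKα3+ cells. Under LN332 the values were 5157, 3332, 3446 and 3467 CPM and at 4502, 2984, 3113 and 2615 CPM. Replicate 1 was the highest of its group in all 4 groups, and the log2 differences between the lines were -0.09 (-0.51 to 0.33) and -0.23 (-0.65 to 0.19). The heavy chains share sequence with other class I genes (9.63% of the 50-base words of *H2-K1* and 12.8% of those of *H2-D1* occur in other genes), so their counts are uncertain to that extent.

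Of the genes that supply peptides, *Tap1* and *Tap2* (the peptide transporter) and *Tapbp* (tapasin, which loads peptides on class I molecules) did not pass, with vehicle values between -0.27 and -0.19. The immunoproteasome subunits *Psmb8*, *Psmb9* and *Psmb10* and the proteasome activator genes *Psme1* and *Psme2* had negative fold changes in both media for 5 of 5 genes, between -0.40 and -0.15 in vehicle and between -0.50 and -0.22 in LN332. Only *Psmb9* (chromosome 17, 34182030 to 34187330) passed, and only in LN332. It was at 276, 247, 220 and 271 CPM in LN332-treated MKα3− and at 222, 179, 160 and 159 CPM in MKα3+ cells, where the highest MKα3+ library stands just above the lowest MKα3− library. The log2 difference was -0.50 (adjusted p = 0.00460, SE 0.12), close to the fold minimum, and -0.26 (adjusted p = 0.136, SE 0.12) in vehicle. The LN332 value was just under the fold minimum with edgeR (-0.49) and DESeq2 (-0.497), and without any of LN332-treated MKα3− replicates 1 and 4 and MKα3+ replicates 3 and 4 (-0.455 at the least). In vehicle it was at 286, 251, 241 and 224 CPM in MKα3− and at 253, 195, 201 and 192 CPM in MKα3+ cells. Exons of *Psmb9* and *Tap1* overlap on opposite strands, and whether counting used strand is not given in the sources used here, so reads in that stretch cannot be assigned. The constitutive proteasome subunits *Psmb5*, *Psmb6* and *Psmb7*, which the immunoproteasome subunits replace, did not pass in either medium, with medians of -0.16 in vehicle and -0.23 in LN332.

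Among transcription factors and regulators, *Irf7*, which amplifies type I interferon production, was lower in MKα3+ cells in both media. *Irf7* (Entrez 54123, chromosome 7, 141263183 to 141266499) was at 664, 319, 515 and 345 CPM in vehicle-treated MKα3− and at 390, 197, 270 and 239 CPM in MKα3+ cells. The LN332-treated replicates were at 547, 339, 458 and 506 CPM in MKα3− and at 326, 199, 240 and 213 CPM in MKα3+ cells. The groups overlapped in vehicle and did not overlap in LN332. The log2 differences between the lines were -0.74 (adjusted p = 0.0292, SE 0.24) and -0.93 (adjusted p = 0.00644, SE 0.24). The vehicle call was lost when any of MKα3− replicates 1 and 3 and MKα3+ replicates 2, 3 and 4 was left out (adjusted p up to 0.109), and without the 3 libraries with the most leukocyte marker counts (-0.68, adjusted p = 0.179). *Stat2* had adjusted p-values of 0.0239 and 0.0397 but changes of -0.42 and -0.36, under the fold minimum. The 115 other genes within 10 Mb of *Stat2* had medians of -0.32 in vehicle and -0.25 in LN332, whose part in its values was not tested. *Nlrc5* (an activator of class I genes), *Irf1* and *Irf9* did not pass and had negative fold changes in both media.

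The sensors of viral RNA gave both directions. *Dhx58*, which encodes LGP2, a regulator of the other RNA helicase sensors, had the largest fold change of the 48 genes. *Dhx58* (Entrez 80861, chromosome 11, 100694884 to 100704271) was at 134, 35.6, 106 and 52.6 CPM in vehicle-treated MKα3− and at 23.6, 10.3, 14.1 and 13.3 CPM in MKα3+ cells. With LN332 it was at 90.6, 37.2, 64.7 and 33.0 CPM in MKα3− and at 15.1, 8.93, 9.03 and 8.50 CPM in MKα3+ cells. Within each medium every MKα3+ library was below every MKα3− library, although the MKα3− libraries themselves spread widely, with replicates 1 and 3 above 2 and 4. The log2 differences between the lines were -2.29 (adjusted p = 0.000534, SE 0.42) and -2.37 (adjusted p = 0.000840, SE 0.46). A transcript on the opposite strand, *Dhx58os*, overlaps its exons.

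*Ifih1*, which encodes the long double-stranded RNA sensor MDA5, was lower in MKα3+ cells, and *Rigi*, which encodes the sensor of RNA with a 5′ triphosphate, was higher. *Ifih1* (chromosome 2, 62595618 to 62646255) was at 116, 85.0, 111 and 86.8 CPM in vehicle-treated MKα3− and at 75.4, 62.1, 64.0 and 67.6 CPM in MKα3+ cells. In LN332 the replicates stood at 102, 99.2, 112 and 87.0 CPM and at 71.3, 62.6, 68.6 and 62.9 CPM. The groups did not overlap in either medium, and the log2 differences between the lines were -0.56 (adjusted p = 0.00108, SE 0.11) and -0.59 (adjusted p = 0.000614, SE 0.11). The vehicle value fell to the fold minimum or below it without vehicle-treated MKα3− replicate 1 (-0.48) or 3. With the median of the other genes within 10 Mb of *Ifih1* subtracted, the values were -0.44 and -0.49, both under the fold minimum. *Rigi* (chromosome 4, 40203777 to 40239825) was at 133, 93.2, 124 and 102 CPM in vehicle-treated MKα3− and at 166, 137, 151 and 159 CPM in MKα3+ cells. Under LN332 the values were 115, 109, 111 and 91.8 CPM and at 149, 149, 169 and 164 CPM. Every MKα3+ library was above every MKα3− library in both media. The log2 difference was 0.57 (adjusted p = 0.000831, SE 0.11) in LN332 and 0.45 (adjusted p = 0.00589, SE 0.11) in vehicle, just under the fold minimum. The 124 other genes within 10 Mb of *Rigi* had medians of 0.44 in vehicle and 0.42 in LN332, close to the values of *Rigi* itself. With that median subtracted, 0.14 was left in LN332, and its part in the result was not tested. *Zbp1*, a sensor of Z-form nucleic acid, did not pass, at -0.32 in vehicle and -0.56 in LN332 (adjusted p = 0.0851).

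Of the 2-5A synthetase family, the kinase PKR and the IFIT genes, *Oas2* was the only one of 8 that passed, and it passed in both media. *Oas2* (Entrez 246728, chromosome 5, 120730333 to 120749886) encodes an enzyme that makes the activator of RNase L. It was at 240.5, 116, 219 and 118 CPM in vehicle-treated MKα3− and at 49.4, 33.5, 51.2 and 46.5 CPM in MKα3+ cells. The LN332-treated replicates were at 192, 96.3, 164 and 67.5 CPM and at 52.6, 30.4, 37.0 and 31.2 CPM. The groups did not overlap in either medium, and the log2 differences between the lines were -1.88 (adjusted p = 0.000183, SE 0.31) and -1.70 (adjusted p = 0.000442, SE 0.31). *Oas2* and *Dhx58* passed in both media under every alternative tried. The other 7 genes lay between -0.38 (*Oas1a*) and 0.12 (*Eif2ak2*, which encodes PKR) in vehicle, and *Ifit2* and *Ifit3* had SEs large enough that their 95% intervals in vehicle ran from -1.49 to 0.88 and from -1.28 to 0.66. *Oas1a* and *Ifit3* share 57.6% and 51.2% of their 50-base words with neighbouring copies, so their counts are uncertain.

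The interferon-induced GTPases and other restriction factors included the least abundant gene that passed. *Mx1* (Entrez 17857, chromosome 16, 97447035 to 97462906), a GTPase that blocks orthomyxoviruses, was at 24.6, 4.88, 16.5 and 6.91 CPM in vehicle-treated MKα3− and at 5.39, 1.88, 3.13 and 3.71 CPM in MKα3+ cells. With LN332 it was at 14.01, 5.97, 8.69 and 5.33 CPM and at 4.38, 2.03, 3.23 and 2.66 CPM. The groups overlapped in vehicle by a single library of each and did not overlap in LN332. The log2 difference was -1.68 (adjusted p = 0.0221, SE 0.52) in vehicle and -1.43 (adjusted p = 0.0636, SE 0.57) in LN332. The vehicle call was lost without MKα3− replicate 3, without MKα3+ replicate 2 or 3 (adjusted p up to 0.0704) and with only the groups compared in the fit (adjusted p = 0.0552), and the LN332 value passed with edgeR (adjusted p = 0.0211) and DESeq2 (adjusted p = 0.0138).

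*Gbp3*, a guanylate-binding protein gene, and *Ifitm3* passed in LN332 only. In LN332-treated cells, *Gbp3* (chromosome 3, 142560016 to 142573213) was at 635, 516, 458 and 467 CPM in MKα3− and at 528, 325, 321 and 281 CPM in MKα3+ cells. In vehicle it was at 679.6, 516, 503 and 489 CPM and at 596, 370, 378 and 337 CPM. Replicate 1 of the MKα3+ cells overlapped the MKα3− range in both media, and the log2 differences between the lines were -0.54 (adjusted p = 0.0424, SE 0.20) in LN332 and -0.41 (adjusted p = 0.142, SE 0.20) in vehicle. *Ifitm3* (chromosome 7, 141009590 to 141010744) was at 1336, 891, 1097 and 1115 CPM in LN332-treated MKα3− and at 821, 786, 791 and 712 CPM in MKα3+ cells. In vehicle it was at 1375, 815, 1188 and 808 CPM and at 794, 680, 789 and 713 CPM, so that the groups did not overlap in either medium. The log2 differences between the lines were -0.50 (adjusted p = 0.0194, SE 0.16) in LN332 and -0.46 (adjusted p = 0.0355, SE 0.16) in vehicle, on either side of the fold minimum. Both LN332 calls were lost without LN332-treated MKα3− replicate 1 or MKα3+ replicate 4, and that of *Gbp3* without any 1 of 9 libraries (adjusted p up to 0.130). *Samd9l* had a positive value in both media (0.52 and 0.46, adjusted p = 0.106 and 0.137), *Mx2* had -0.77 and -0.57, and *Gbp2*, *Rsad2* and *Bst2* lay between -0.39 and 0.03 over both media.

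In the ISG15 system with its ubiquitin and ADP-ribosyl ligases, 1 of 6 genes passed, and the median was -0.01 in vehicle and 0.01 in LN332. *Isg15*, a ubiquitin-like modifier, and *Usp18*, which removes it, had -0.21 and 0.02 in vehicle with SEs of 0.35 and 0.29. *Trim25* (chromosome 11, 88999403 to 89020294), a ubiquitin ligase that acts with RIG-I, was at 107, 90.7, 95.5 and 86.7 CPM in LN332-treated MKα3− and at 134, 125, 149.9 and 145 CPM in MKα3+ cells. In vehicle it was at 128, 102, 107 and 101 CPM and at 149, 117, 112 and 150.0 CPM. The groups did not overlap in LN332 and did in vehicle, with log2 differences between the lines of 0.54 (adjusted p = 0.00126, SE 0.11) and 0.26 (adjusted p = 0.0903, SE 0.11). Its LN332 value fell just under the fold minimum without LN332-treated MKα3− replicate 4 or MKα3+ replicate 3. It was also just under with the median of neighbouring genes subtracted (0.495). *Parp14*, *Parp9* and *Dtx3l* did not pass.

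Of the remaining induced genes, *Lgals3bp*, a secreted glycoprotein gene (chromosome 11, 118392747 to 118401959), passed in vehicle. It was at 274, 149, 268 and 163 CPM in vehicle-treated MKα3− and at 118, 110, 144 and 115 CPM in MKα3+ cells. In LN332 the replicates stood at 153, 132, 233 and 102 CPM and at 108, 119, 129 and 106 CPM. The groups did not overlap in vehicle and did in LN332, with log2 differences between the lines of -0.76 (adjusted p = 0.0146, SE 0.22) and -0.36 (adjusted p = 0.218, SE 0.22). The vehicle call was lost without MKα3− replicate 1 or 3 (adjusted p up to 0.0575) and without the libraries numbered 1 (adjusted p = 0.0913). *Xaf1* had positive values of 0.25 and 0.31, and *Ifi35*, *Ifi27*, *Rtp4* and *Helz2* had negative values in both media. None of these 5 genes passed.

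**Figure D2:**
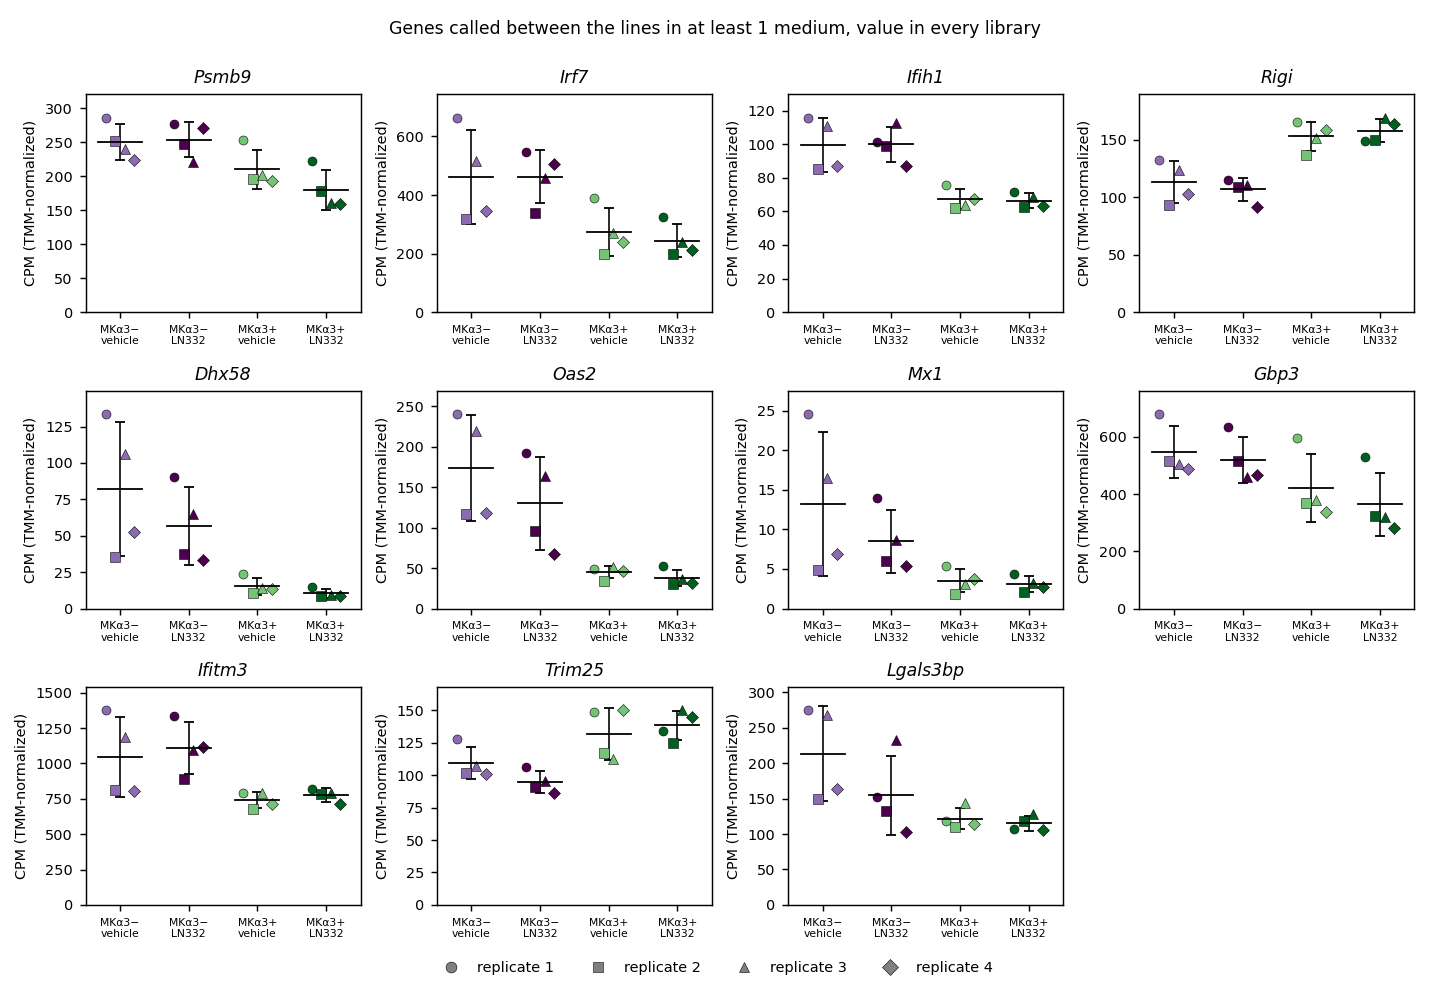
TMM-normalized CPM (y axis, from 0) of the 11 genes that passed between the lines in at least 1 medium, in the 16 libraries (x axis, by group). Symbols give the replicate number, and lines and bars the mean and SD of 4 libraries; all *Dhx58* and *Oas2* values of MKα3+ cells lie below those of MKα3− cells in the same medium, and *Rigi* and *Trim25* lie higher in MKα3+ cells.

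Counted by libraries, 7 of the 48 genes had groups that did not overlap in vehicle, 6 lower and 1 higher in MKα3+ cells, where 32.9% of all genes did not overlap (15.7% lower and 17.2% higher). In LN332 there were 8, 6 lower and 2 higher, where 26.5% of all genes did not overlap (12.9% lower and 13.6% higher). For a single gene without overlap the exact permutation test over the 70 splits of 8 libraries, two-sided, gives p = 0.0286, the smallest it can give.

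Removing the 3 libraries with the most leukocyte marker counts left 3 of the 48 genes differentially expressed in vehicle, *Dhx58*, *Ifih1* and *Oas2*, where 13.1% of all genes then passed, and 6 in LN332, where 16.6% did. Leaving out MKα3− vehicle replicate 3 left 2 in vehicle, *Dhx58* and *Oas2*, where 16.3% of all genes passed. Leaving out the 4 libraries numbered 1 gave 6 in vehicle (18.8% of all genes) and 12 in LN332 (23% of all genes).

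The second question was how these genes responded to LN332. None of the 48 genes passed in MKα3− cells (background 0.304%) or in MKα3+ cells (background 0.187%) in limma-voom, and none did with edgeR or DESeq2. At an unadjusted p under 0.05 there were 4 genes in MKα3− cells (*Tapbp*, *Dtx3l*, *Lgals3bp* and *Helz2*, all lower with LN332) and 0 in MKα3+ cells. Averaged over both lines, 0 passed (background 1.35%) and 7 were under an unadjusted p of 0.05. The difference between the lines in their LN332 response passed for 0 of the 48 genes (background 0%), with 0 under an unadjusted p of 0.05. The share of all genes under that unadjusted p was not counted, so these unadjusted counts cannot be read as an excess.

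The median response was -0.13 in MKα3− and -0.12 in MKα3+ cells, where the medians of all genes were -0.01 in both, and it was negative for 32 and 37 of the 48 genes, against 51.1% and 51.5% of all genes. Without vehicle-treated replicate 1 of the line, the median was 0.00036 in MKα3− and 0.0065 in MKα3+ cells. The values ran from -0.49 (*Ifit2*) to 0.25 (*Oasl1*) in MKα3− cells and from -0.55 (*Dhx58*) to 0.24 (*Oasl1*) in MKα3+ cells. *Tap1*, *Tap2* and *Tapbp* had negative values in both lines, between -0.41 and -0.30 in MKα3− and between -0.42 and -0.10 in MKα3+ cells. *Tap2* (chromosome 17, 34204479 to 34216321) was at 113, 122, 133 and 122 CPM in vehicle-treated and at 102, 84.4, 95.3 and 85.8 CPM in LN332-treated MKα3+ cells. It was the only one of the 48 genes whose MKα3+ groups did not overlap (background 9.66%), and in MKα3− cells 0 of 48 did not overlap (background 4.95%).

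**Figure D3:**
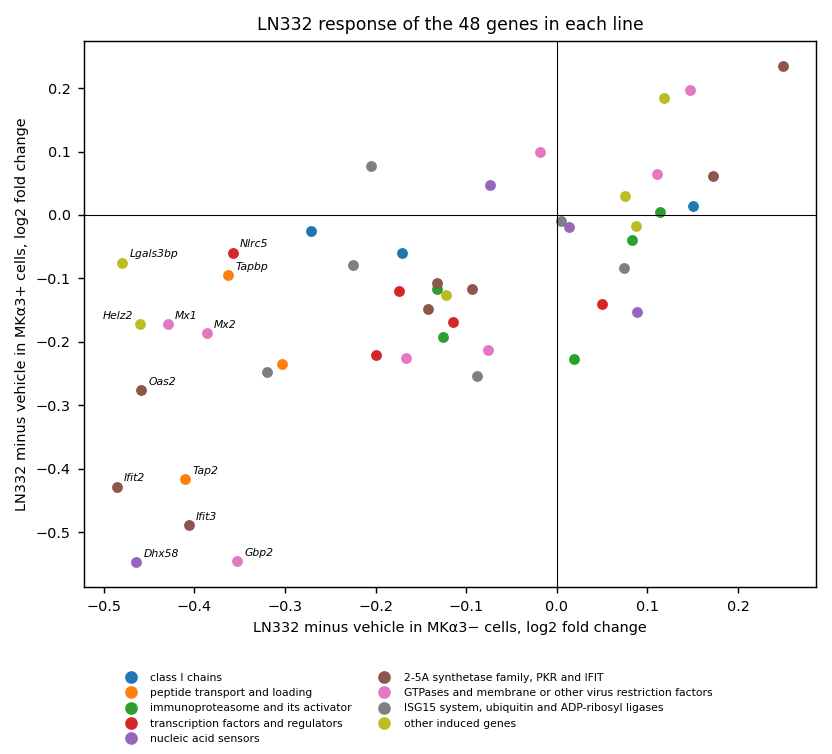
Log2 fold change of LN332 over vehicle in MKα3− cells (x axis) and in MKα3+ cells (y axis) for each of the 48 genes, coloured by role. Both axes run over less than 1 log2 unit, none of the values passed, and *Ifit2*, *Ifit3*, *Tap2*, *Dhx58* and *Gbp2* lie lowest in both lines together.

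In MKα3+ cells, replicates with the same number deviated together between vehicle and LN332, so the response was also fitted with the replicate number as a block. *Gbp2* (chromosome 3, 142620663 to 142638008), a guanylate-binding protein gene induced by interferon γ, then passed, with a log2 difference of -0.55 (adjusted p = 0.0180, SE 0.12, background 1.51%), against -0.55 (adjusted p = 0.528, SE 0.26) without the block. It is named because of this call. With the block, the shares of all genes that passed were 21.1% and 23.4% between the lines in vehicle and in LN332, 1.79% for LN332 in MKα3− cells and 2.51% for LN332 averaged over both lines. Its values were 802, 495, 404 and 381 CPM in vehicle-treated and 614, 317, 279.5 and 245 CPM in LN332-treated MKα3+ replicates 1 to 4, lower with LN332 in 4 of 4 pairs. The ranges of the groups overlapped because replicate 1 was high in both.

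Across all 4 groups, these genes followed the replicate number. Replicate 1 had the highest value of its group in all 4 groups for 27 of the 48 genes (56.2%), against 7.59% of all genes. No other replicate number was highest in all 4 groups for any of the 48. The difference between replicate 1 and the mean of the other 3 had a median over the 48 genes of 0.51 log2 units in vehicle-treated and 0.41 in LN332-treated MKα3− cells, and of 0.42 and 0.43 in MKα3+ cells. It was positive for 48, 46, 44 and 45 of the 48 genes, and the medians of all genes were between -0.01 and 0.03. The labels do not say what a replicate number stands for.

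The difference was largest for *Ifit2*, which encodes an IFIT protein that binds viral RNA, with 1.46, 1.66, 1.98 and 1.79 log2 units in vehicle-treated MKα3−, LN332-treated MKα3−, vehicle-treated MKα3+ and LN332-treated MKα3+ cells. *Ifit2* was at 308, 105, 168 and 79.9 CPM in vehicle-treated MKα3− and at 244, 90.6, 107 and 47.8 CPM in LN332-treated MKα3− replicates 1 to 4. The MKα3+ replicates were at 328, 89.3, 77.8 and 81.5 CPM in vehicle and at 220, 69.4, 76.4 and 48.2 CPM with LN332. *Ifit3*, with a pair of response element cores in the stretch printed above, had 1.42, 1.38, 1.25 and 1.22 log2 units. *Mx1*, *Mx2*, *Dhx58*, *Isg15*, *Usp18* and the immunoproteasome subunit gene *Psmb10* came next, with means over the groups between 0.83 and 1.08 log2 units. At the low end, *Tapbp*, *Lgals3bp*, *Rigi*, *Nlrc5*, *H2-D1* and *Tap1* had means between 0.10 and 0.17.

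The spread of these genes within groups was accordingly wide. The median SD of log2 CPM over the 48 genes was 0.32, 0.31, 0.27 and 0.25 in vehicle-treated MKα3−, LN332-treated MKα3−, vehicle-treated MKα3+ and LN332-treated MKα3+ cells, against 0.18, 0.27, 0.15 and 0.17 for all genes. Summed keratinocyte markers were lowest in replicate 1 in all 4 groups (9065, 9375, 9158 and 10353 CPM, against 11588.5 CPM or more in every other library). Summed leukocyte markers in replicate 1 were 89.8, 59.1, 118 and 58.6 CPM. The part of either in the pattern was not tested.

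**Figure D4:**
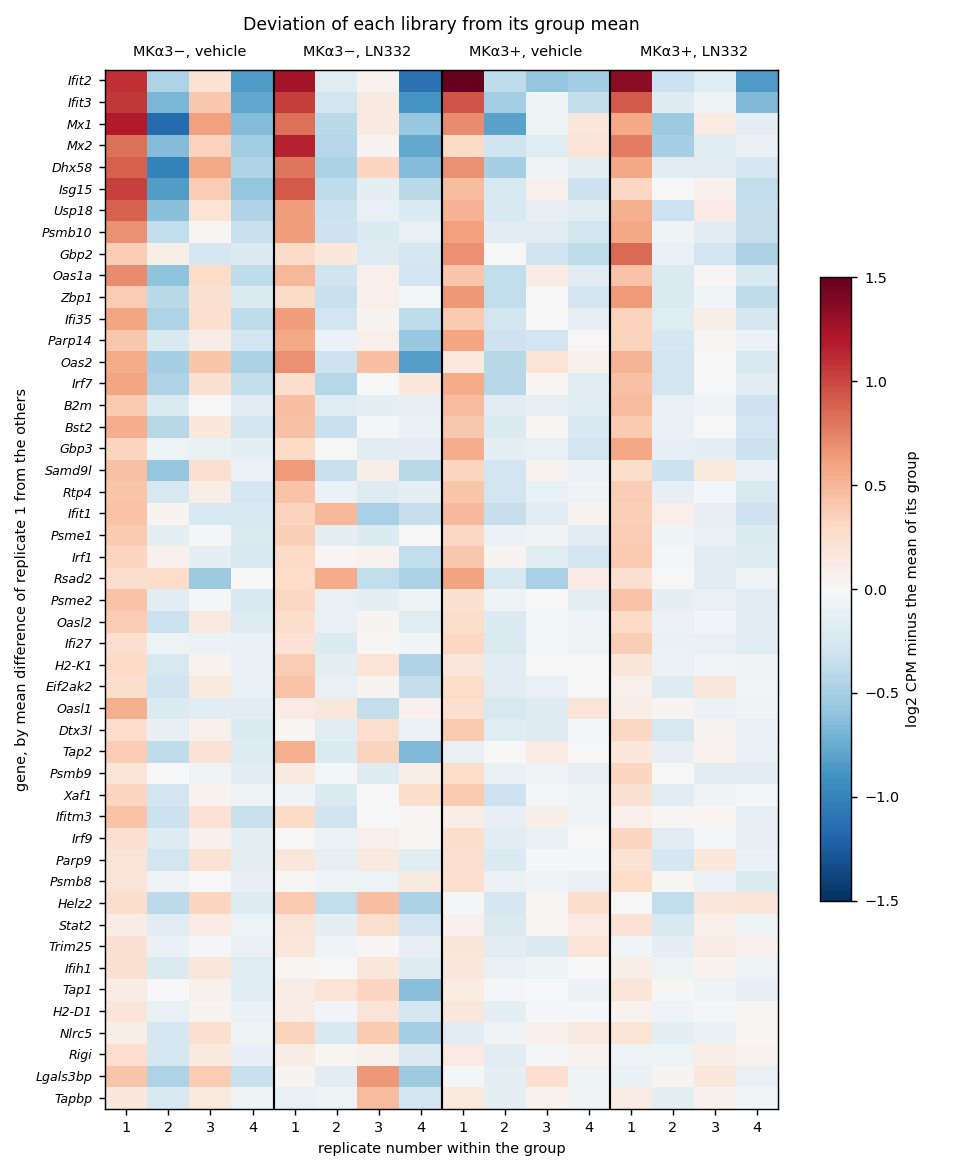
Deviation of each library from the mean of its group (colour, log2 CPM, with the ends of the scale clipped) for the 48 genes (y axis, ordered by the mean difference of replicate 1 from the others) in the 16 libraries (x axis, replicate numbers within groups). The column of replicate 1 is red in all 4 groups for most genes, most of all for *Ifit2* and *Ifit3*.

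**Figure D5:**
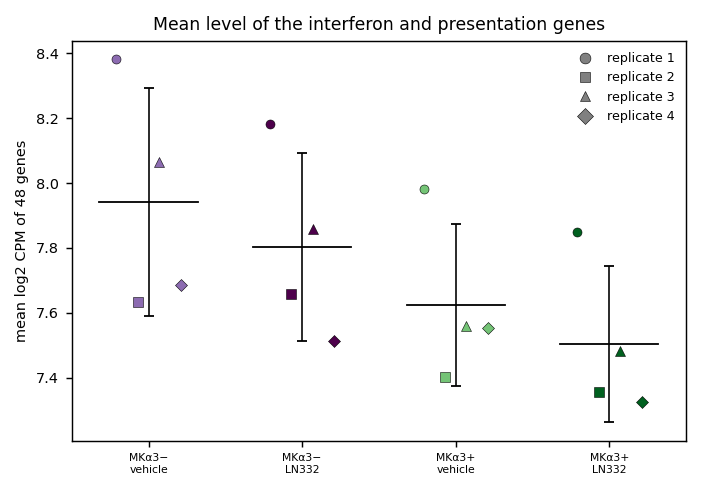
Mean log2 CPM of the 48 genes (y axis) in each library by group (x axis), with symbols for the replicate number and lines and bars for the mean and SD of 4 libraries. Replicate 1 is the highest in each group, and the ranges of the groups overlap.

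Other genes of the pathway were counted in the same fits, from lists chosen by function. Of 18 genes for receptors and signalling, 1 was higher and 2 were lower in MKα3+ cells in vehicle, and 1 was higher and 3 were lower in LN332. For this list and the next ones the shares over all genes are those given above, 10.9% higher and 7.56% lower in vehicle and 11.7% and 8.92% in LN332. *Socs1*, the feedback inhibitor of JAK kinases, was at 94.1 ± 15.1 CPM (SD, n = 4) in vehicle-treated MKα3− and 45.9 ± 15.0 CPM in MKα3+ cells, a log2 difference of -1.07 (adjusted p = 0.000836, SE 0.21), and had -1.82 (adjusted p = 6.41e-06, SE 0.22) in LN332. *Irf8*, a transcription factor best known in myeloid cells, was higher at 1.61 (adjusted p = 2.48e-05, SE 0.22), and *Ifngr1*, a chain of the interferon γ receptor, was lower at -0.55 (adjusted p = 0.0164, SE 0.16). *Irf8* stayed between 1.98 and 4.10 CPM in vehicle-treated MKα3− and between 7.26 and 8.81 CPM in MKα3+ cells.

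Of 10 adaptor and cytosolic DNA or RNA sensing genes, 2 were higher and 2 were lower in vehicle. *Cgas*, which encodes the sensor of cytosolic DNA, was at 0.07, 0.10, 0.14 and 0.76 CPM in vehicle-treated MKα3− and at 3.78, 5.45, 4.90 and 5.25 CPM in MKα3+ cells (adjusted p = 6.42e-06). *Sting1*, which encodes the adaptor downstream of cGAS, went the other way, from 21.7 ± 8.13 CPM to 7.33 ± 1.02 CPM, with a log2 difference of -1.51 (adjusted p = 0.00151, SE 0.31). *Ikbke*, a kinase that activates interferon regulatory factors, was lower at -0.85 (adjusted p = 0.0185, SE 0.25). Both members of the DNA sensing pair kept these directions in LN332, at 4.92 (adjusted p = 6.34e-06) and -1.63 (adjusted p = 0.00240).

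Of 42 further interferon-stimulated genes, 2 were higher and 6 were lower in vehicle, with a median of -0.14, and 2 and 6 in LN332, with a median of -0.16. The largest in vehicle were *Phf11d* at -1.52 (adjusted p = 0.00235, SE 0.33), *Sp110*, a nuclear body protein gene, at -0.86 (adjusted p = 0.0333, SE 0.29), and *Oas3*, a large 2-5A synthetase gene, at -0.74 (adjusted p = 0.00761, SE 0.19). Of 15 other class I presentation genes, 2 were lower in both media and 0 were higher. *H2-T23*, which encodes the non-classical molecule Qa-1, was at 295, 158, 215 and 164 CPM in vehicle-treated MKα3− and at 26.4, 16.5, 20.4 and 17.4 CPM in the MKα3+ replicates, and the log2 difference was -3.34 (adjusted p = 4.46e-08, SE 0.26). *H2-Q6* was at -1.24 (adjusted p = 2.73e-06, SE 0.14), and counts can be shared among the near-identical *H2-Q* genes.

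Of the 7 class II presentation genes, 6 were higher in MKα3+ cells in vehicle and 5 in LN332, and 0 were lower. *H2-Eb1*, named because it had the other sign, did not pass, at -0.11 and -0.12. *Ciita*, the master regulator of class II genes, was at 3.51 ± 0.476 CPM in vehicle-treated MKα3− and 8.26 ± 1.46 CPM in MKα3+ cells, a log2 difference of 1.23 (adjusted p = 0.000778, SE 0.24). *H2-Aa* (a class II α chain) and *H2-DMb1* (a chain of the peptide exchange factor) were at 1.04 (adjusted p = 0.00102, SE 0.21) and 1.03 (adjusted p = 0.000575, SE 0.19). In LN332 the values of *H2-Aa* and *H2-DMb1* were 0.98 and 1.05, and *Ciita* passed as well. Summed leukocyte markers were also higher in the vehicle-treated MKα3+ libraries, as given above, and their part in these values was not tested. With LN332, 0 genes of any of these pathway lists passed in either line. Averaged over both lines, *Calr* of the 15 other class I presentation genes and *Irf5* of the 18 receptor and signalling genes passed. Both were lower with LN332, where 1.35% of all genes passed.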

How the data were processed

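RNA from 16 samples of mouse keratinocytes was sequenced as poly(A) libraries. The authors aligned the reads to mm10 with Rsubread and counted them per gene with featureCounts and its built-in Entrez annotation, and deposited raw counts, which are used here. bcl2fastq 2.20 is named in the submitters' processing notes. Groups came from the sample labels, 4 libraries each. Counts were TMM-scaled (edgeR 4.0.16) and fitted with limma-voom (limma 3.58.1, R 4.3.3) in 1 model of all 16 libraries, with Benjamini-Hochberg adjustment over 14474 genes; a gene passed at an adjusted p under 0.05 and an absolute log2 difference over 0.5. A filter of over 0.5 CPM in 3 libraries removed 0 genes. The code was tested on simulated data. The genes and the pathway and marker lists were chosen with earlier results of these data known. Genes given with values in every library were those that passed and the class I chains; of each pathway list, up to 3 that passed with the largest vehicle differences were named, and other genes were named after their values were seen. Same-numbered MKα3+ libraries in vehicle and LN332 correlated in their deviations from the group means (0.202 to 0.620 for the 4 numbers), so a fit with the number as a block is given beside that comparison. edgeR's quasi-likelihood test, DESeq2 1.42.0, other filters, scalings and thresholds, and leaving out libraries were alternatives. Depth was 21735708 to 29338370 counts per library.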

Additional observations from a re-analysis of the deposited data

Results flagged for a closer look

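In 7 of the 64 groups of 4 libraries tested, 1 library stood apart from the other 3 by Dixon's criterion. Chance flags about 1 in 20 groups, or 3.2 of 64. The genes come from the same libraries and vary together, so the flags are not independent and cannot be read as an excess. Each of the 7 was replicate 1 and was high. For *H2-K1* it was LN332-treated MKα3+ replicate 1, with 3888 CPM against 3217 to 3315 in the others. *B2m* reached 5157 CPM in the LN332-treated MKα3− group (others 3332 to 3467) and 4455 CPM in the vehicle-treated MKα3+ group (others 2835 to 2951). *Psmb9* reached 253 CPM in the vehicle-treated MKα3+ group (others 192 to 201), and *Dhx58* reached 15.1 CPM in the LN332-treated MKα3+ group (others 8.50 to 9.03). *Gbp3* reached 679.6 CPM in the vehicle-treated MKα3− group (others 489 to 516) and 596 CPM in the vehicle-treated MKα3+ group (others 337 to 378).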

How the results depend on the processing

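Of 178 counts of genes that passed, 167 stayed within 1.5 times the reported count, or stayed at 0, and 11 moved. The reported counts were 0 for LN332 and for the difference between the lines in their LN332 response. Some of these could not move, as with a higher fold minimum, so the 167 overstates how far stability was tested. Of 166 medians 10 changed sign, 8 of them for the difference between the lines in their LN332 response (-0.14 to 0.14). The others were 1 for LN332 in each line, without vehicle-treated replicate 1 and with replicate 1 kept in the LN332 group. With a fold minimum of 1 on the log2 scale, 3 genes passed in vehicle (9.41% of all genes) and 2 in LN332 (9.29%). With the median of neighbouring genes subtracted, only the log2 difference was shifted, and the adjusted p was that of the unshifted value. No p-value was computed for a shifted difference. By that rule 5 passed in vehicle (*Irf7*, *Dhx58*, *Oas2*, *Mx1* and *Lgals3bp*) and 4 in LN332 (*Irf7*, *Dhx58*, *Oas2* and *Gbp3*). *Ifih1* then passed in neither medium, and *Psmb9*, *Rigi*, *Ifitm3* and *Trim25* no longer passed in LN332. The subtraction was done for the 48 genes alone, so no share over all genes can be given. Without the 3 libraries with the most leukocyte marker counts, an alternative chosen after seeing the data as was leaving out the libraries numbered 1, 3 passed in vehicle. Leaving out 1 library at a time gave 2 to 7 in vehicle (16.2% to 19.0% of all genes), 6 to 12 in LN332 (17.9% to 23.1%), 0 to 1 for LN332 in MKα3− cells (*Tapbp*, without LN332-treated replicate 3), 0 to 0 for LN332 in MKα3+ cells and 0 to 1 averaged over both lines (*Tap2* without LN332-treated MKα3− replicate 1, *Gbp2* without LN332-treated MKα3+ replicate 1). Sample quality weights gave 1 for LN332 in MKα3+ cells, *Gbp2* (3.14% of all genes). The class I chains changed sign near 0. *H2-K1* in LN332 was at -0.0042 with edgeR and -0.0072 with DESeq2, and between -0.13 and 0.16 with 1 library left out. *H2-D1* in LN332 was at 0.048 with the neighbours' median subtracted. *B2m* in vehicle was at 0.058 without the leukocyte-high libraries and between -0.25 and 0.043 with 1 library left out. The cause was not tested.

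With the replicate number as a block, 8 of the 48 genes passed in vehicle (*Mx2* and *Samd9l* added), 12 in LN332 (*Mx1*, *Mx2* and *Zbp1* added), 0 for LN332 in MKα3− cells, 1 for LN332 in MKα3+ cells (*Gbp2*) and 1 averaged over both lines (*Dhx58*, -0.52, adjusted p = 0.0123). Outside the MKα3+ comparison, no pair of groups had all its same-number correlations of deviations over 0.1. Over all 24 same-number pairs, 18 had a correlation over 0.1 and the lowest was -0.0469. Of the 16 libraries, 13 correlated best with their own number, and what a number stands for is not given. The mean level of the 48 genes was lower in MKα3+ cells in 8 of 8 same-number pairs, with differences from -0.50 to -0.13 log2 units. Depth was similar across libraries, and the 4 libraries per group limit what could be called.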
